A study of Mus musculus with 3 samples.

Results

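The regions described here are the HDAC3 peaks that lay at the end of a protein-coding gene and had no KLF4 peak beside them. A peak belonged to the set when its centre was within 1 kb of either annotated end of a protein-coding gene of GRCm38 and no KLF4 peak centre was within 1 kb of its own centre. The set was thus chosen by measured values, the positions of the called peaks in both lists, and its distance from KLF4 is no finding. It holds 2047 of the 57920 HDAC3 peaks on chromosomes, or 3.53%, where 69.5% of all HDAC3 peaks and 70.9% of those away from gene ends had no KLF4 within 1 kb. It makes up 50.7% of the 4039 HDAC3 peaks at gene ends (exact 95% interval 49.1 to 52.2), and the other 1992 had KLF4 within 1 kb. The peaks came from chromatin immunoprecipitation with sequencing (ChIP-seq) of dorsal epidermis of wild-type mice at embryonic age E18.5. HDAC3 was precipitated with Abcam ab7030 in 1 library and KLF4 with R&D AF3158 in another, and the remaining library was input with no antibody. All 3 shared genotype and age, and the number of embryos behind each is not stated in the sources used here. Each antibody had a single library, so no spread between replicates could be measured and nothing was tested, and the intervals on shares cover counting error only. The peak lists hold no expression values, so the labelled tissue could not be checked against its markers. KLF4 occupancy had to fall under the peak caller's threshold for a site to enter the set, which does not show that KLF4 was absent there.

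HDAC3 is a histone deacetylase that works as the enzyme of the NCoR and SMRT corepressor complexes. It does not itself read DNA sequence and is brought to chromatin by transcription factors. KLF4 is a zinc finger factor of the suprabasal epidermis that binds GC-rich and CACCC-type sequences and is needed for the skin barrier.

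The sequences that the comparison of motifs turns on come from the peaks whose centre lay in a RefSeq promoter window, 250 bases before to 50 bases after a gene start (GRCm38.p6). The rule's peaks occupied 231 such windows. Among them, 23 held a peak of score 50 or more, where the score is the tag number that the authors' caller gave to the peak, and 9 of those 23 contained the E-box CACGTG, the palindrome read by MYC, USF and CLOCK proteins. All 9 are shown as the 30 bases around the E-box nearest to the peak centre, with the E-box in capitals, 5′ to 3′ on the gene's strand. Their positions are Washc2 chr6:116208016-116208045 (+), Dpp7 chr2:25356388-25356417 (-), Wrap53 chr11:69580357-69580386 (-), Alkbh7 chr17:56997159-56997188 (+), Gadd45b chr10:80929894-80929923 (+), Pip5k1a chr3:95106946-95106975 (-), Bcl6 chr16:23988895-23988924 (-), Ccdc103 chr11:102881186-102881215 (+), Mgrn1 chr16:4886064-4886093 (+). The stretches are ordered by the score of the peak, from 132 at Washc2 to 51 at Mgrn1. Among the genes are Bcl6, which encodes a transcriptional repressor, Gadd45b, a stress-response gene, Dpp7, a peptidase gene, and Mgrn1, a ubiquitin ligase gene.
Washc2: tgaggacaccatCACGTGacgtgaaccatg
Dpp7: ccgccagactatCACGTGatgctgccccgc
Wrap53: agccagggtgagCACGTGggaggggaaagt
Alkbh7: tggctttgccccCACGTGacctccagcctc
Gadd45b: agccctgaccccCACGTGgggccgccggag
Pip5k1a: ggcatcatctgtCACGTGatccgaagtccc
Bcl6: cgtcacggagccCACGTGacggcggcggag
Ccdc103: cttcgggccggtCACGTGggcagactggtg
Mgrn1: actgtggctactCACGTGagaggtggtggt

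The E-box was 0 bp from the peak centre at Alkbh7, 7 bp at Washc2 and 226 bp at Gadd45b. The 9 stretches differed from each other over their length, but some shared the bases next to the E-box. Washc2, Dpp7, Pip5k1a and Mgrn1 all read TCACGTGA. Washc2 was the 1 window of the 9 with 2 E-boxes. Whole upstream stretches of 250 bases follow for 5 of the higher-scored peaks whose stretch holds motifs. Capitals mark CACGTG, the CCAAT box bound by NF-Y (CCAAT or its reverse complement), the GC box GGGCGG, the KLF4-type GGGTGNGG and the ETS motif CCGGAAG, on either strand. Not all high peaks had them. Upstream stretches at other peaks, of scores 69, 63, 61 and 56, held none of these motifs, and another of score 56 held CCAAT only. Their positions in GRCm38.p6 are Alkbh7 chr17:56997089-56997338 (+), Gadd45b chr10:80929841-80930090 (+), Pip5k1a chr3:95106931-95107180 (-), Tubb4b chr2:25224703-25224952 (-), Tnfrsf1a chr6:125349473-125349722 (+), and no annotated gene overlapped them.
Alkbh7: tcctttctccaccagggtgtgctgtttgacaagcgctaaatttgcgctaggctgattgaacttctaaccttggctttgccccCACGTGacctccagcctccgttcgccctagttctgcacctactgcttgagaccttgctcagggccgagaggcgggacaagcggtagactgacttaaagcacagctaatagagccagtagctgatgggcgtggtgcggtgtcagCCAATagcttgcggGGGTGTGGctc
Gadd45b: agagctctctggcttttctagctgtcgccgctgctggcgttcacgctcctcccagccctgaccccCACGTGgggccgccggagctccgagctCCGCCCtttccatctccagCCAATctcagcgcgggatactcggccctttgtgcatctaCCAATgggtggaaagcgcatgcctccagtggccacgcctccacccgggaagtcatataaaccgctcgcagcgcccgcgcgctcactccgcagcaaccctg
Pip5k1a: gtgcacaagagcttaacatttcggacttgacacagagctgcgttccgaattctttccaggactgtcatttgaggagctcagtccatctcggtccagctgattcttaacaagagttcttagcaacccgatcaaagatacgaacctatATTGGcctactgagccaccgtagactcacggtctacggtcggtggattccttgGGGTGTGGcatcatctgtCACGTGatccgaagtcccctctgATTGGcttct
Tubb4b: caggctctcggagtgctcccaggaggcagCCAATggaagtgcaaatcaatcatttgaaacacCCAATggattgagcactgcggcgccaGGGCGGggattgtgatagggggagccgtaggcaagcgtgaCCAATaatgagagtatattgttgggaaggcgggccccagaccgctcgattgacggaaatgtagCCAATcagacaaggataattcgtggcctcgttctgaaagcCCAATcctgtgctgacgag
Tnfrsf1a: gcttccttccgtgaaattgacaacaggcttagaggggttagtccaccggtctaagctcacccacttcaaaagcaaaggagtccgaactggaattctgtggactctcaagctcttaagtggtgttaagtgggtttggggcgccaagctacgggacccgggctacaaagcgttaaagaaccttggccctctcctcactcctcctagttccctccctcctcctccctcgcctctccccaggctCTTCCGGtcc

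At Alkbh7, which encodes a mitochondrial AlkB homologue, and Pip5k1a, a phosphatidylinositol phosphate kinase gene, the E-box shared the promoter with CCAAT and a KLF4-type match, although the nearest KLF4 peaks were 7016 and 2576 bp away. Tubb4b, a beta-tubulin gene, carried 5 CCAAT boxes and had its HDAC3 peak of score 71 centred 49 bp after the start. Tnfrsf1a, the receptor for tumour necrosis factor, had an ETS match 38 bp from the centre of a peak that was 25.0-fold over 2 input tags. A match is a description of the letters and not a measured binding site.

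Across all 231 windows, CACGTG was found in 36, or 15.6% (11.2 to 20.9). It was in 10.3% (7.77 to 13.4) of the 484 windows holding an HDAC3 peak with KLF4, in 7.24% (5.37 to 9.51) of the 649 holding a KLF4 gene-end peak without HDAC3 and in 7.84% of all 21238 protein-coding promoter windows. The E-box was therefore about as frequent at KLF4 peaks without HDAC3 as at promoters in general, and most frequent where HDAC3 stood without KLF4, although the intervals of the first 2 sets overlapped. Height moved with it. Windows at or above the median score of 27 held the E-box in 20.8% (14.1 to 29.0) and windows below it in 9.43% (4.62 to 16.7), a split chosen after the values were seen. Other motifs differed across this split as well. ETS was in 21.6% (14.7 to 29.8) and 10.4% (5.30 to 17.8) of these windows. The GC box was in 52.8% (43.7 to 61.8) and 34.9% (25.9 to 44.8), and AP-1 in 8% (3.90 to 14.2) and 3.77% (1.04 to 9.38). The intervals of the 2 heights overlapped for each of these motifs and for the E-box. At a score of 50 or more the 9 of 23 windows made 39.1% (19.7 to 61.5), against 10.5% (6.72 to 15.5) of the 209 windows with KLF4 of that height. This limit was not planned either, and the E-box was 1 of 24 motifs searched. In the same 23 windows ETS was in 21.7%, the GC box in 39.1% and AP-1 in 4.35%, so the GC box and AP-1 did not keep rising. Of the 23 windows, 12 had fewer than 8 input tags, and 6 of those 12 held the E-box. In windows of middle GC content (51.3 to 61.7%) the shares were 19.4% (12.8 to 27.4) for the rule's windows, 10.2% (7.01 to 14.1) for those with KLF4 and 8.57% for all promoters. In windows of high GC content they were 15% (5.71 to 29.8), 15.1% (8.30 to 24.5) and 11.3%, so the rule's windows did not stand above those with KLF4 there. In windows of low GC content they were 8.96% (3.36 to 18.5), 6.45% (2.40 to 13.5) and 3.8%.

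The CCAAT box was in 47.2% (40.6 to 53.8) of the windows without KLF4, 38.8% (34.5 to 43.3) of those with KLF4 and 38.2% of all promoters, and its share was the same at both heights, with 47.2% at or above the median score and 47.2% under it. Motifs read by KLF and SP proteins went the other way. GGGCGG was in 44.6% (38.1 to 51.2) of the windows without KLF4, close to the 46.2% of all promoters, against 59.7% (55.2 to 64.1) with KLF4 and 62.9% at KLF4 alone. GGGTGNGG was in 16.0% (11.5 to 21.4), 22.1% (18.5 to 26.1) and 26.0% of these sets and in 18.1% of all promoters. The AP-1 motif TGANTCA, read by FOS and JUN dimers, was in 6.06% (3.35 to 9.96) without KLF4, 13.8% (10.9 to 17.2) with KLF4 and 6.99% of all promoters. The ETS motif was in 16.5% (11.9 to 21.9) without KLF4, 20.0% with KLF4 and 11.6% of all promoters. Median GC content was 56.0%, 57.3% and 57.0% for the 3 peak sets and 56.3% for all promoters, but its spread differed. Windows of low GC content were 67 of the 231 without KLF4 and 93 of the 484 with KLF4. At middle GC content GGGCGG was in 41.9% (33.1 to 51.1) without and 63.9% (58.3 to 69.3) with KLF4. At low GC content it was in 25.4% (15.5 to 37.5) and 21.5% (13.7 to 31.2), and at high in 85.0% and 86.0%. The lower GC box share without KLF4 was thus clear at middle GC content only. In all, 24 motifs were searched on both strands of windows of the same length.

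**Figure D1:**
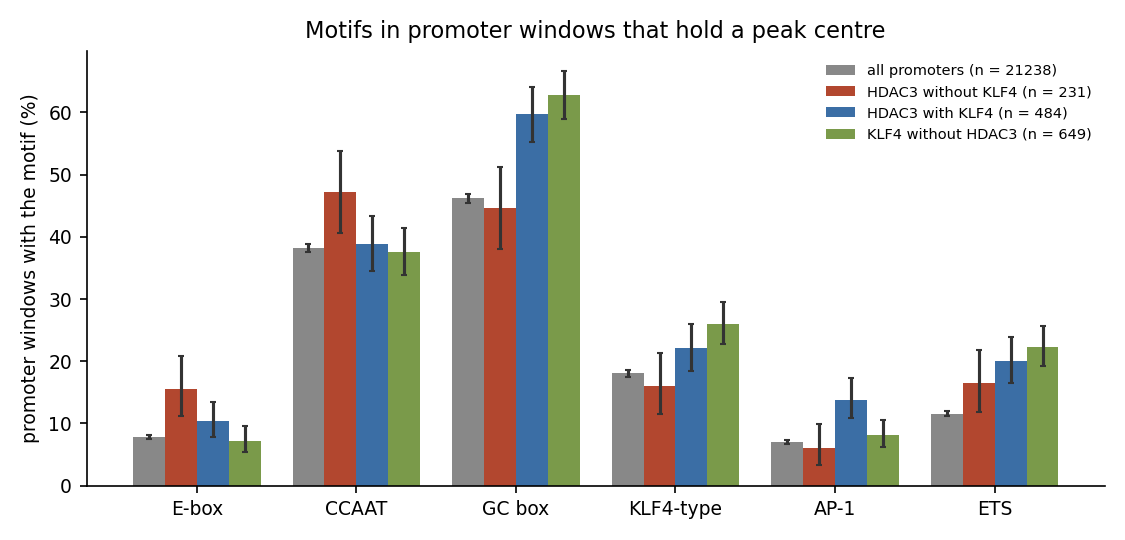
Share of promoter windows (y axis, percent) that contain each of 6 motifs, for all promoters and for the windows holding 3 kinds of peak centre; error bars are exact 95% intervals for counting error. The E-box and CCAAT bars are tallest for HDAC3 without KLF4 (15.6% and 47.2%), and its GC box, KLF4-type and AP-1 bars are below those of HDAC3 with KLF4.

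The peaks of the set were lower than those with KLF4. Their score had a median of 22 (quartiles 19 and 28), against 42 (31 and 59) for the gene-end peaks with KLF4, 22 for the whole HDAC3 list and 19 for HDAC3 peaks without KLF4 away from gene ends. A share of 39.7% (37.5 to 41.8) stood within 4 tags of the caller's threshold of 16, against 5.32% with KLF4 and 61.1% of the peaks without KLF4 away from gene ends. A score of 50 or more was reached by 86 peaks, or 4.20%, against 747, or 37.5%. When all gene-end HDAC3 peaks were ordered by score, the share without KLF4 fell in every step of 10 from 92.3% to 7.44%. Enrichment over input ran differently: the median was 6.12-fold without and 6.56-fold with KLF4, and the share without KLF4 stayed between 42.3% and 59.9% in all 10 steps of that value. At least 8-fold over input were 34.0% of the peaks without KLF4 and 34.7% of those with it, both under the 41.7% of the whole HDAC3 list. The input differed too, with a median of 2 input tags without and 4 with KLF4. HDAC3 and KLF4 peaks were called against the same input library, and the part of the input in these shares was not tested.

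**Figure D2:**
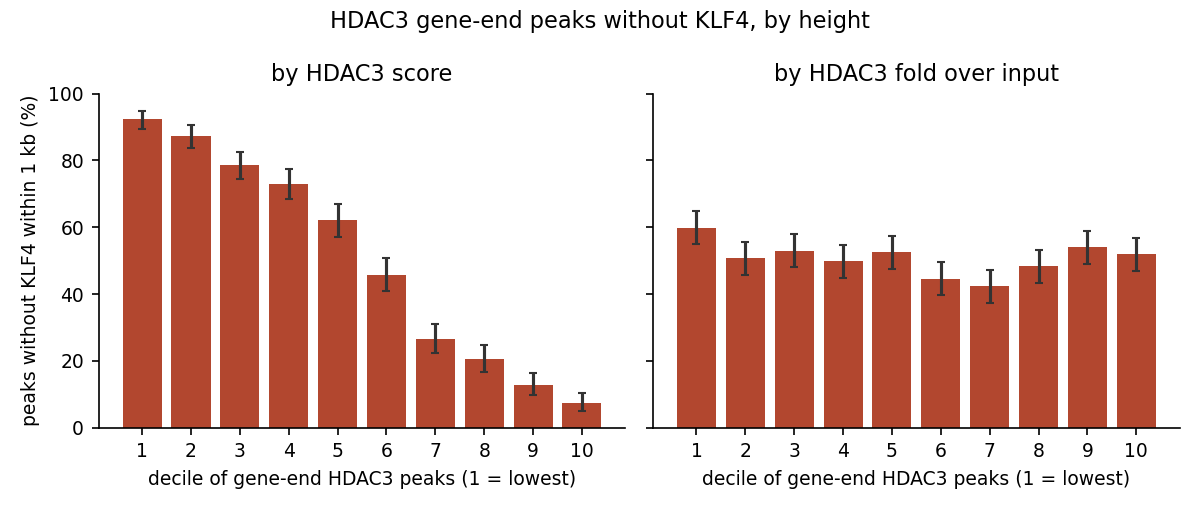
Share of HDAC3 gene-end peaks with no KLF4 centre within 1 kb (y axis, percent) in 10 equal steps of HDAC3 score (left) and of fold over input (right), lowest step first; error bars are exact 95% intervals. The share falls from 92.3% to 7.44% along the score and stays between 42.3% and 59.9% along the fold.

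The highest peaks of the set were at genes of many functions. Nufip2, the gene of an RNA-binding partner of FMRP, had a score of 143 at chr11:77685802-77685986, 130 bp from the gene end, with 7.91-fold enrichment over input. Washc2, a subunit gene of the endosomal WASH complex, had 132 and was 8.20-fold over input. These peaks were 46.6- and 33.7-fold over the surrounding 10 kb, where the median of the set was 5.24-fold. They also had 12 input tags each, against a median of 2. Among the 15 highest peaks, 11 had 8 or more input tags, which 1.61% of the whole set and 10.6% of the peaks with KLF4 of any score reached. Of the 86 peaks of score 50 or more, 31 had as many. The 2 values are tied by the caller, which required at least 4-fold over input. A peak with many input tags could therefore enter the list only with a high tag number.

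The next in order included Jun, an AP-1 subunit gene, at 114. Its peak was 80 bp from the start and 1073 bp from a KLF4 peak of score 136, just beyond the limit, and another end-of-gene HDAC3 peak at Jun did have KLF4. Klhl38 (106), S100a14 (93, a calcium-binding protein gene), Spns1 (93, a lysosomal lipid transporter gene) and Myo1e (92, a class I myosin gene) followed. Tbl1x, which encodes a subunit of the HDAC3 corepressor complex itself, scored 86 and was 12.9-fold over input with 4 input tags at chrX:77509197-77509381. Its nearest KLF4 peak was 46907 bp away. In the HDAC3 corepressor complex list Tbl1x was the 1 gene of 10 with a peak in the set, or 10%, near the 9.84% of all genes. Wnt10b, a Wnt ligand gene, scored 85 and was 34.0-fold over input with 2 input tags. The Wnt10b peak was 267 bp from the gene end and 2539 bp from a KLF4 peak. Fosl2 (85), which encodes another AP-1 subunit, Rdh12 (84), a retinol dehydrogenase gene, Ppp2r5a (82), a phosphatase subunit gene, Acbd4 (79) and Tnfrsf1a (78) were also among the 15. Of the 15 peaks, 11 were at the start side of their gene, 4 were at genes whose strand was not listed, and 8 had a KLF4 peak within 5 kb.

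Ordered by fold over input, other genes led. Lmtk3, a kinase gene, had 54.8-fold, Atxn7l1 48.0-fold, Kcnq1, a potassium channel gene, 47.0-fold, and Mapre2, a microtubule end-binding protein gene, 46.0-fold. Krt24, a keratin gene, followed at 42.1-fold, then Rbx1, a subunit gene of cullin ubiquitin ligases, 9130019O22Rik and Tyk2, a Janus kinase gene, all at 39.2-fold, and Gstm4, a glutathione transferase gene, at 38.2-fold. All 9 had no input tag, which the caller writes as 0.5, so these ratios rest on the floor, and their scores were 26 to 41. Sox9, the regulator of hair follicle stem cells, came next with 37.2-fold over 1 input tag, and its score of 63 at 27 bp from the gene end was high on both measures.

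Distance to KLF4 varied widely. The nearest KLF4 centre was a median of 12535 bp away (quartiles 5312 and 29442 bp). It lay within 2 kb for 154 peaks (7.52%), within 5 kb for 470 (23.0%) and beyond 100 kb for 142 (6.94%). Scores were lower the farther KLF4 was: the median was 27 at 1 to 2 kb and at 2 to 5 kb, 23 at 5 to 20 kb, 20 at 20 to 100 kb and 18 beyond. The median enrichment over the local 10 kb was 5.02-fold at 1 to 2 kb, 5.43-fold at 20 to 100 kb and 8.58-fold beyond. On the other side of the limit the medians continued upwards, with 29 for peaks 500 to 1000 bp from KLF4, 36 for those nearer than that without overlap and 45 where the peaks overlapped. The members just inside the KLF4 limit were at Rragc (1001 bp, score 29), Ap3s2 (1003 bp, 17) and Wdr36 (1007 bp, 41), and the peaks just outside it were at Ccdc47 (996 bp, 27), Cd274 (994 bp, 29) and Snx12 (993 bp, 19). At the gene-end limit, 9230019H11Rik (1000 bp, score 17), Atrnl1 (1000 bp, 33) and Hivep1 (999 bp, 38) were in, and Pld6 (1001 bp, 24), Pcsk5 (1001 bp, 17) and Ercc4 (1003 bp, 19) were out. The farthest from KLF4, at 4931408C20Rik, was over a megabase away and had a score of 65 with 9 input tags; it was named after its value was seen.

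**Figure D3:**
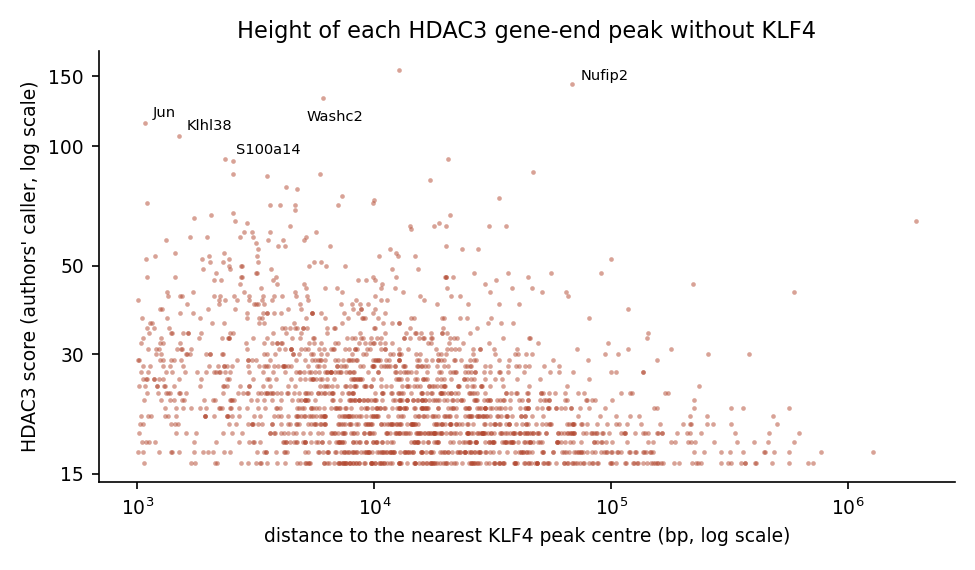
HDAC3 score (y axis, log scale) of each of the 2047 peaks against the distance to the nearest KLF4 peak centre in bp (x axis, log scale), with 5 of the highest named. Points thin out upwards with distance, while Nufip2 stands high at 68373 bp.

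Without KLF4, HDAC3 sat less often at the start of genes. The gene table gives no strand, so sides were read from the 17492 of 21887 protein-coding genes with a listed promoter, which covered 1645 of the peaks. Of these, 62.2% (59.9 to 64.6) were on the start side alone, 33.6% (31.3 to 36.0) on the far side alone and 4.13% on both. With KLF4, 79.7% (77.6 to 81.6) were on the start side and 16.0% (14.2 to 17.9) on the far side. The KLF4 peaks without HDAC3 were between them, with 75.1% and 21.4%. Start-side peaks of the set had a median score of 24 and far-side peaks 20, whereas with KLF4 the medians were 41 and 44.

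Around the starts themselves the set was spread more evenly. Of the 987 peaks within 1 kb of a listed start, 29.1% (26.3 to 32.0) were within 200 bp of it, against 41.0% (38.3 to 43.8) with KLF4. Upstream lay 52.6% (49.4 to 55.7) against 62.7% (59.9 to 65.4), and 300 to 1000 bp into the gene lay 29.6% (26.8 to 32.5) against 19.3% (17.1 to 21.6). Which exon or intron a peak fell in was not analysed here.

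**Figure D4:**
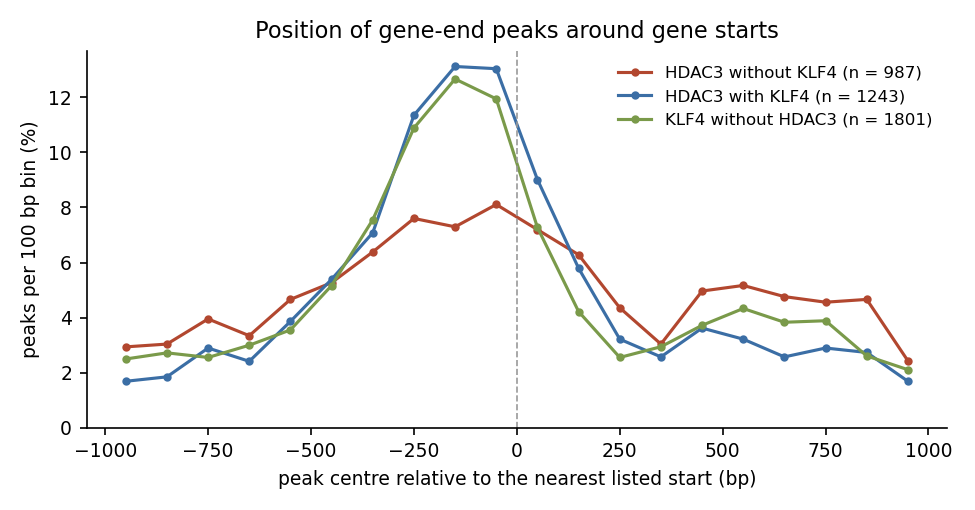
Position of peak centres relative to the nearest listed gene start (x axis, bp, negative is upstream) as a percentage of the peaks within 1 kb of a start in each 100 bp bin (y axis). HDAC3 without KLF4 peaks at 8.11% just upstream of the start, lower than HDAC3 with KLF4 and KLF4 without HDAC3, and is above both from 100 bp downstream.

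The set touched 2153 protein-coding genes, 9.84% of the 21887, where 18.9% had any HDAC3 gene-end peak and 23.1% any KLF4 gene-end peak. Of these genes, 311 (14.4%) had a KLF4 peak at 1 of their ends as well. Most genes had 1 such peak, 115 had 2 and 3 had 3. The 3 were Azi2, a kinase adaptor gene of innate immunity, Lnx1, a ubiquitin ligase gene whose highest peak scored 71, and Mboat7, a phospholipid acyltransferase gene. Conversely 202 peaks (9.87%) served 2 or more genes, and 1 of them lay within the limit for 24 genes that share a gene end. By chromosome the share of gene-end HDAC3 peaks without KLF4 ran from 41.1% on 17 to 61.1% on X.

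The gene lists, 46 in all, were set against that 9.84%, as counts only. Counts of list genes with an HDAC3 peak with KLF4 have no such share printed beside them. Of all 21887 genes, 4143 had any HDAC3 gene-end peak. A peak of the set was at 2153 genes, and 127 of these had an HDAC3 peak with KLF4 as well. The share of all genes with an HDAC3 peak with KLF4 was thus under 18.9%. The Hippo and YAP list stood highest, with 9 of 26 genes (34.6%), and 5 other genes of the list had an HDAC3 gene-end peak with KLF4. Its leading members were the angiomotin genes Amotl1 (score 66) and Amotl2 (48), which encode junctional binders of YAP, then the kinase activators Mob1a (39) and Mob1b (31) and the scaffolds Ajuba (28) and Wwc1 (24). Fold over input of these 6 was between 4.28 and 5.87, and all but Mob1a had KLF4 within 5 kb, so that with the limit at 5 kb 4 of 26 remained (15.4%, against 7.68% of all genes).

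Of the NF-kB and inflammation list, 9 of 40 genes (22.5%) had a peak in the set. Tnfaip3, the ubiquitin-editing inhibitor of the pathway, scored 35, the adhesion receptor gene Icam1 34, the pathway subunit genes Relb 30 and Rel 28, and the chemokine genes Cxcl10 27 and Cxcl1 25. Their fold over input was 4.16 to 8.16, and 3 of the 40 remained (7.5%) when 8-fold enrichment was required, against 3.32% of all genes.

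Among epidermal transcription factors 8 of 43 (18.6%) had a peak, and 11 had one with KLF4. Besides Sox9 there was a peak at Klf4 itself, of score 58 and 9.30-fold over input, 981 bp from the gene end and 1323 bp from a KLF4 peak. Arnt (44), a dimer partner of bHLH-PAS factors, Grhl1 (31), a regulator of keratinocyte differentiation, and Cebpd (22) were among the others. Immediate early genes had 5 of 32 (15.6%), led by Jun, Fosl2 and Fosl1 (53), then the nuclear receptor gene Nr4a1 (37) and the GTPase gene Rhob (29), and 11 with KLF4. Without peaks of 8 or more input tags, which removes Jun and Fosl2, 3 of 32 (9.38%) remained, against 9.68% of all genes.

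Shares of structural genes of the epidermis varied. Of cornified envelope and late differentiation genes, 4 of 42 (9.52%) had a peak without KLF4, against 21 of 42 with KLF4. The 4 were Lor, the loricrin gene (score 50, and a second HDAC3 peak with KLF4), Lce1b (33), Sprr4 (26) and Sprr3 (16), and each had KLF4 within 5 kb. Barrier lipid genes had 3 of 34 (8.82%), keratins 2 of 53 (3.77%, Krt72 and Krt24), and basal layer and hemidesmosome genes 1 of 21 (Postn, score 18). Junction genes had 5 of 35 (14.3%), among them the desmoplakin gene Dsp (51) and the connexin gene Gjb6 (41), against 11 with KLF4.

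Chromatin regulators had modest peaks. Histone deacetylases and acetyltransferases had 4 of 24 (16.7%), at Ep300 (30), Hdac10 (28), Hdac2 (23) and Hdac6 (22), and histone methyl regulators 6 of 32 (18.8%), at Kmt2d (29), Tet2 (28), Kdm5b (27), Kmt5a (23), Ehmt1 (19) and Eed (18). The clock list had 4 of 22 (18.2%), among them Cry1 (40), Rora (32) and Nr1d2 (25), the last being a repressor gene whose product recruits HDAC3. The Nr1d2 peak had 1 input tag and was 1018 bp from a KLF4 peak, just beyond the limit, and the Cry1 peak was 1626 bp from one.

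Housekeeping lists lay on both sides of the background. Translation factors had 10 of 71 (14.1%) and proteasome subunits 6 of 51 (11.8%). Cytosolic ribosomal protein genes had 7 of 84 (8.33%) and 21 with KLF4, and RNA polymerase and Mediator genes 1 of 56 (1.79%, Polr3g, score 20) against 14 with KLF4. When only KLF4 peaks at least 8-fold over input were counted, the RNA polymerase and Mediator genes with HDAC3 and no KLF4 became 7 of 56 (12.5%), against 13.6% of all genes. Olfactory receptor genes, whose best known site of expression is the olfactory neuron, had 32 of 1110 (2.88%), with scores of 16 to 24, and none with KLF4. In the higher-scored 50% of HDAC3 peaks, 3 of 1110 remained (0.27%), against 5.62% of all genes. At 8-fold over the local region, 22 of 1110 (1.98%) remained against 1.5% of all genes, so the list was then no longer under the background.

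Markers of other cells that the sample could hold were counted as well. Dermal fibroblast markers had 4 of 16 (25%), the second-highest share of the 46 lists, at Twist2 (23), Pdgfra (19), Dcn (18) and Fn1 (17). Melanocyte markers had 1 of 12 (8.33%, Mlana 19) and immune cell markers 0 of 15. These lists are short, of 12 to 16 genes, and a difference between cell types was not tested. All 5 scores were between 17 and 23, against the set's median of 22, and the part of other cells in the results was not tested.

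**Figure D5:**
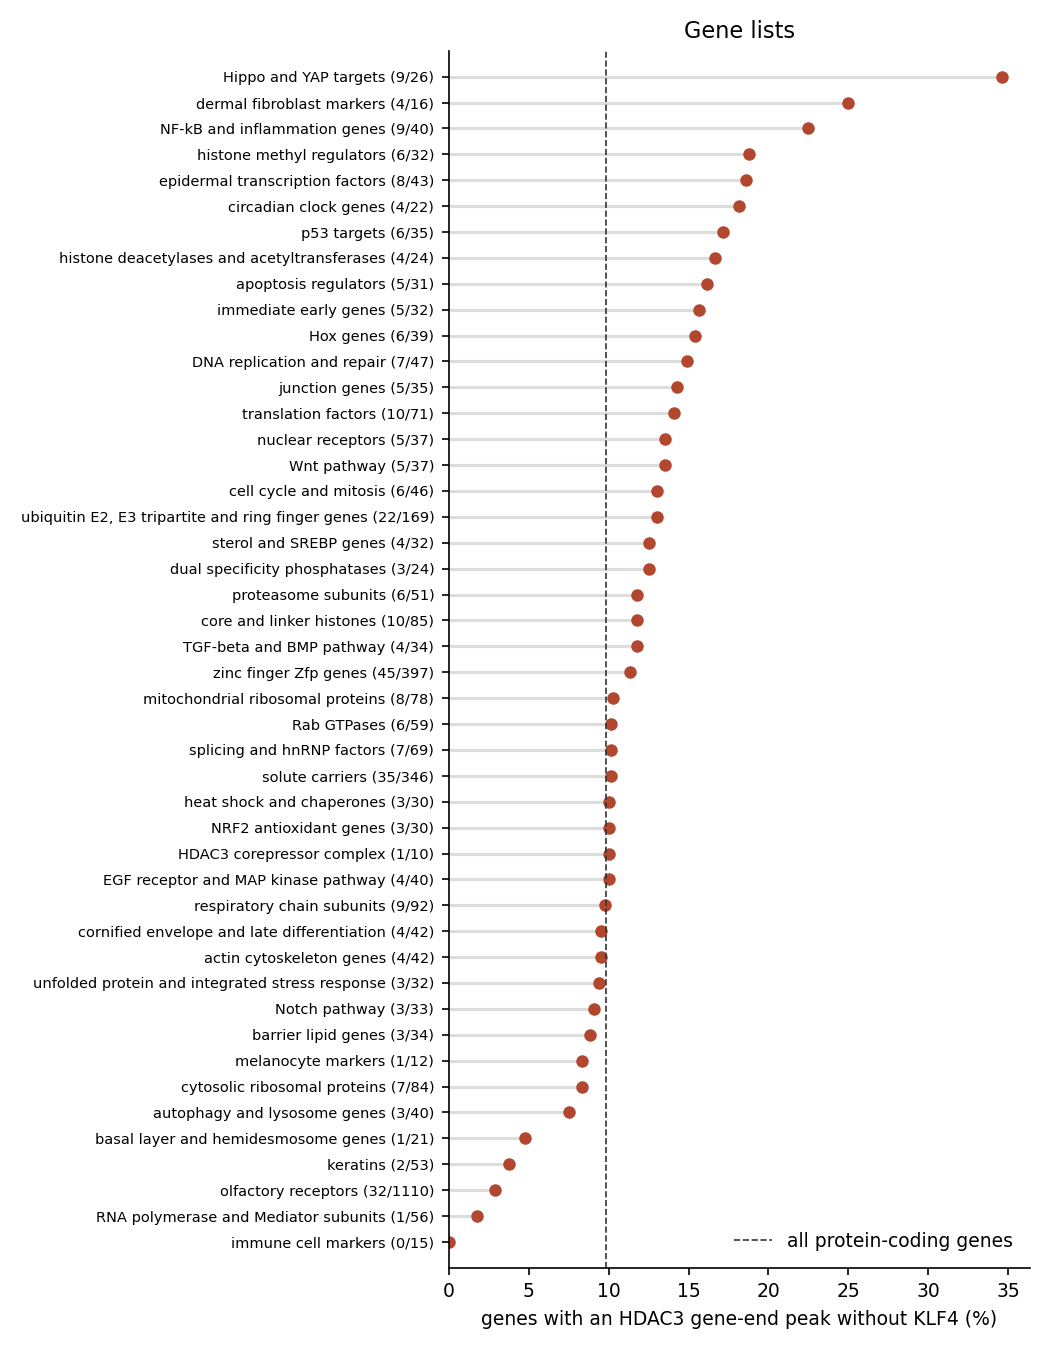
Percentage of genes in each of 46 lists (x axis) with an HDAC3 gene-end peak without KLF4; the counts stand beside the names and the dashed line is the 9.84% of all protein-coding genes. The Hippo and YAP list is highest at 34.6%, and olfactory receptors, RNA polymerase and Mediator subunits and immune cell markers are lowest.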

How the data were processed

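Peak lists for HDAC3 and KLF4 were used as deposited. The submitters' processing notes name bcl2fastq, STAR, HOMER and the build GRCm38.p5, without versions of the tools. Per the file headers, peaks of 185 bp were called separately in each precipitation against the same input, with at least 4-fold enrichment over input and local 10 kb, at a Poisson p-value of 1e-04 and a false discovery rate of 0.001. Depth was 56787485 tags for HDAC3 and 61432711 for KLF4, per the file headers.

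The score is a tag number from the authors' caller, the 2 fold values are ratios computed by it, the deposited tag counts of ChIP and input are scaled to the input with 0 written as 0.5, the tag signal is the authors' normalised tag number, the focus ratio is a deposited fraction, and the deposited p-values per peak were not used. Scores and folds only describe or rank peaks within a list.

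Peaks were placed on RefSeq gene ends of GRCm38.p6 (21887 protein-coding genes on chromosomes, 16 HDAC3 peaks elsewhere left out) and RefSeq promoter sequences, none of them on chromosome 18. Python 3 scripts were checked on simulated peaks. Intervals are exact Clopper-Pearson at 95%; PCR copies are not independent molecules. Members, gene lists, motifs and alternatives were chosen with earlier results of these data known. Genes named are those of the 15 highest scores, the 10 highest folds, up to 6 per list, the 3 nearest each limit and those with 3 peaks; the genes of the E-box stretches and printed promoters were chosen after their values were seen. A few genes that this rule would name are not reported here.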

Additional observations from a re-analysis of the deposited data

How the results depend on the processing

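With 1 library per antibody, the counts and shares given here, 7 gene lists, the E-box share and the median score were recomputed under other limits and stricter lists. The other lists and motifs and the profiles by side, start and KLF4 distance were not recomputed. The share of gene-end HDAC3 peaks without KLF4 (50.7%) was 59.1% when only overlapping KLF4 counted, 54.5% at 500 bp, 46.9% at 2 kb and 39.0% at 5 kb; 70.0% with KLF4 peaks at least 8-fold over input and 66.0% with the higher-scored 50% of them. Among HDAC3 peaks it was 37.7% in the higher-scored 50%, 32.7% at 8-fold over the local region and, chosen after seeing the data, 53.1% without peaks of 8 or more input tags; at gene-end windows of 500 bp and 2 kb it was 45.8% and 54.6%. The number of peaks became 1124 and 3523 at those windows, 696 at 8-fold over input, 1120 in the higher-scored 50% and 298 at 8-fold over the local region, and the number of genes 1180, 3563, 727, 1231 and 329. The share within 1 kb of a listed start (48.2%) was 56.8% in the higher-scored 50%, and 29.2% within 500 bp of the start. The E-box share of the set's promoter windows was between 12.9% and 20.0% in 12 alternatives added after seeing the data. The share in windows with KLF4 was not recomputed, so the contrast between the sets was not examined. At 8-fold over the local region it was 9 of 70 windows (6.05 to 23.0), an interval that includes the 7.84% of all promoters. The cause was not tested where values moved. Low scores limit single peaks: 39.7% stood within 4 tags of the threshold. No paired analysis was possible because each antibody had 1 library.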
